A study of Mus musculus with 7 samples.

Results

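The subject is 52 genes that encode subunits and close partners of the chromatin complexes PRC2, PRC1, SWI/SNF and NuRD, the last joined here with the histone demethylase LSD1 and its partner CoREST. They were given as a list of symbols. A gene was used where a probeset of the array carried its symbol and no other, and the probeset of highest mean over all 7 arrays stood for it. In this way 51 of the 52 were measured, among 22180 genes in all. Cbx6 was not analysed here, because its symbol shares a probeset with another. Total RNA came from G1E, an erythroid precursor cell line from mouse that lacks functional GATA1. It was measured on 3 arrays of control cells, labelled Lockd WT, and 4 arrays of cells labelled Lockd deletion, made with CRISPR/Cas9. All cells were grown in the same medium with no further treatment named. Per the series' design text the cells are clones derived from that line, and the labels say neither how many clones there were nor which array holds which.

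Polycomb complexes keep genes silent. PRC2 methylates histone H3 on lysine 27 through EZH2 or EZH1, and PRC1 ubiquitinates histone H2A through the RING1 proteins. SWI/SNF complexes work in the opposite sense and slide or evict nucleosomes with the motors SMARCA4 or SMARCA2. NuRD joins the remodeller CHD4 or CHD3 to the histone deacetylases HDAC1 and HDAC2. In blood precursors NuRD is recruited by FOG1, the partner of GATA factors, and LSD1 with CoREST by GFI1B. Most of these subunits are drawn from small families of paralogues, so that the subunit a cell expresses sets which form of the complex it can build.

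The promoters of both PRC2 enzymes are shown because these paralogues had levels far apart on every array. Each window runs from 250 bases before to 50 bases after the RefSeq start in GRCm38.p6, 5′ to 3′ on the strand of the gene, with every CCAAT box on either strand (CCAAT or ATTGG) in capitals. The window of Ezh2 is chr6:47594981-47595280 on the minus strand and that of Ezh1 chr11:101226414-101226713 on the minus strand.
Ezh2: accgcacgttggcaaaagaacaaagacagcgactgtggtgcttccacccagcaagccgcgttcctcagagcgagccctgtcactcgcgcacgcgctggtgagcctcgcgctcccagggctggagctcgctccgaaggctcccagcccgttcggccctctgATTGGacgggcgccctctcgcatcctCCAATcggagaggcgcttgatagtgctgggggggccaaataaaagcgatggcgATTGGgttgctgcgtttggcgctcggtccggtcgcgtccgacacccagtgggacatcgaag
Ezh1: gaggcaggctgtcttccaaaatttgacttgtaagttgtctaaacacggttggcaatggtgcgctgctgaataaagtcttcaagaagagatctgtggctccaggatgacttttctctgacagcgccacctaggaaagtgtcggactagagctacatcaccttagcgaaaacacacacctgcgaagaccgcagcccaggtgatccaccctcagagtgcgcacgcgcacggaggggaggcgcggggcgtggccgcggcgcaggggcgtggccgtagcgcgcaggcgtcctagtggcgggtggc
The Ezh2 window held 3 CCAAT boxes and 31 CpG dinucleotides, and the Ezh1 window 0 CCAAT boxes and 23 CpG. Of all 32851 RefSeq promoter windows, 37.4% held a CCAAT box. A match describes the letters in the window and is not a measured site.

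Among the 55 windows of 43 measured members, promoters were rich in CpG, with a median of 27 against 7 over all windows. A GC box (GGGCGG or CCGCCC) stood in 45 of the 55 (81.8%, against 35.7% of all windows) and a GATA motif (GATAA or TTATC) in 7 (12.7%, against 25.4%). The complexes differed in the letters found. A CCAAT box stood in 9 of 15 PRC2 windows, 8 of 12 of NuRD with LSD1, 5 of 16 of PRC1 and 0 of 12 of SWI/SNF. All 12 SWI/SNF windows held a GC box. Some genes have several windows, and these counts were not tested. The windows of all genes include genes of any level, while 48 of the 51 members were brighter than the median gene, so the sets are unlike. The GC box itself holds a CpG, so its share and the CpG count are not separate results.

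The deletion was checked in Lockd, the targeted long non-coding RNA gene, and in its neighbour Cdkn1b, the gene for the cell cycle inhibitor p27. Lockd lay between 7.80 and 8.04 on control and between 4.17 and 5.15 on deletion arrays, a difference of -3.02 (SE 0.23) on the log2 scale, with a limma adjusted p of 0.0162. Cdkn1b differed by -1.14 (SE 0.10), with a limma adjusted p of 0.0251. Lockd missed the threshold on leaving out any control array or deletion replicate 1 or 4, in that order with limma adjusted p values of 0.106, 0.0954, 0.0941, 0.085 and 0.0694, with differences of -3.03, -2.95, -3.07, -3.08 and -3.10. Cdkn1b stayed past the threshold without deletion replicate 2, at 0.0342, and lay between 0.0941 and 0.189 without any other array, with differences of -1.21 to -1.08. Each had an exact permutation p of 0.0286, two-sided by size over the 35 splits, the smallest possible, and 0.0571 with the smaller tail doubled. Erythroid markers were bright, with 10 of 10 measured ones brighter than the median gene, while 0 of 7 myeloid and 0 of 5 lymphoid markers were. Of the other lists, 3 of 4 progenitor, 3 of 6 stromal and endothelial, 2 of 5 megakaryocyte and 2 of 7 mast cell markers were brighter than the median gene. Whole arrays correlated at 0.9925 or more.

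None of the complex genes differed between the groups past the threshold, and their differences were small. By limma, 0 of 51 members had a Benjamini-Hochberg adjusted p under 0.05 across the 23521 probesets tested, where 0.00902% of all genes did. At an unadjusted limma p under 0.05 there were 0 of 51 members, where 4.61% of all genes were. Differences, given throughout as deletion minus control in log2, ran from -0.17 to 0.13. There were 30 members higher and 21 lower, where 11588 of all 22180 genes were higher. The median difference of members was 0.0087, against 0.0054 for all genes. All 51 lay within 0.2 of 0. The 95% intervals of 50 members lay between -0.35 and 0.38. The exception, Chd3, had an interval of -0.65 to 0.89. A p above the threshold does not show that a level was the same, and these intervals bound the differences the arrays leave possible.

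**Figure D1:**
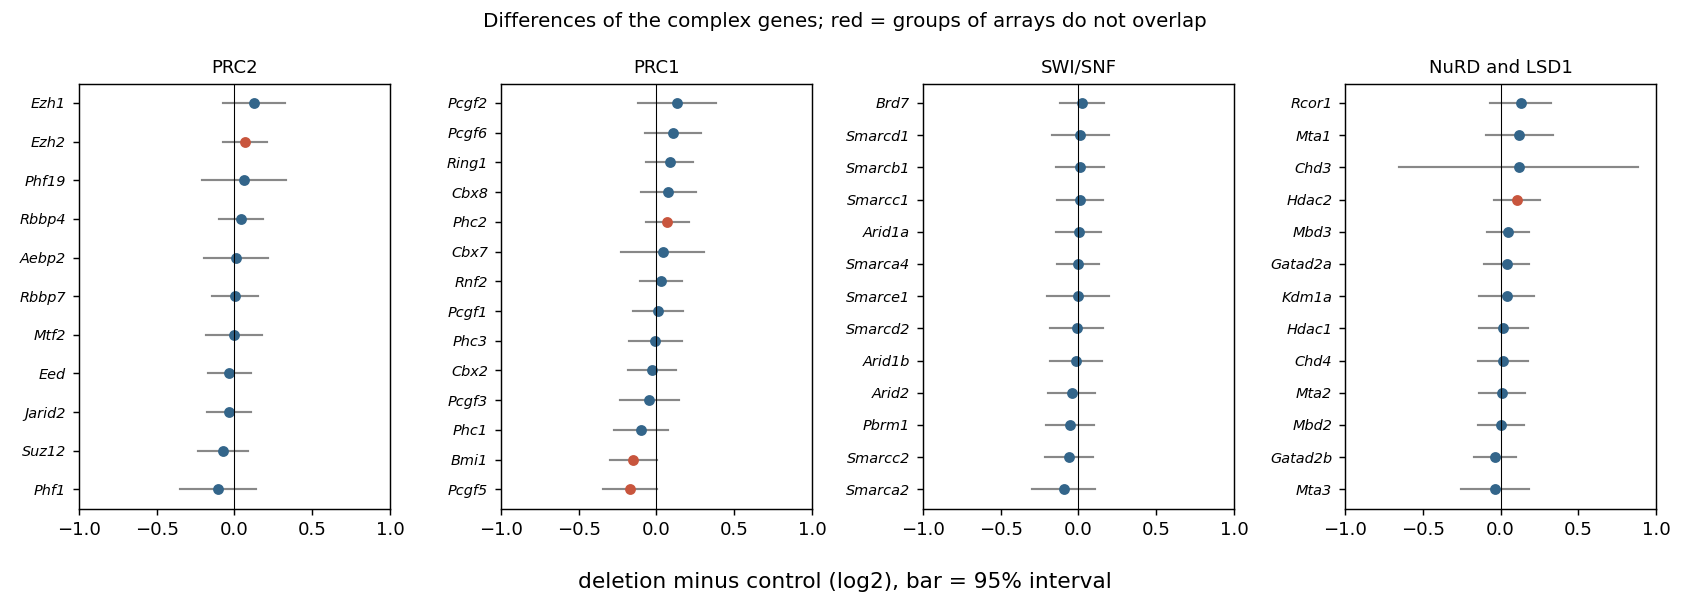
Difference between deletion and control arrays (log2, x axis) for each measured gene of the 4 sets, with its 95% interval as a bar. Points in red are the 5 genes whose groups of arrays did not overlap. All points lie between -0.17 and 0.13, and the interval of Chd3 is the widest.

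The groups of arrays did not overlap for 5 of the 51 members (9.8%), where 5.19% of all genes had groups that did not. Ezh2, Phc2 and Hdac2 were higher on every deletion array (3 of 51 genes, 5.88%, against 2.65% of all genes). Bmi1 and Pcgf5 were lower (2 of 51 genes, 3.92%, against 2.54%). With each array centred on its median, 2 of the 51 had groups that did not overlap, against 4.4% of all genes. Fewer arrays make such gaps commoner. Without control replicate 1, 2 or 3 the count was 8, 14 and 8 of the 51 members, against 12%, 14.3% and 15% of all genes. Without deletion replicate 1 or 2 it was 6 and 9 of the 51, against 8.56% and 9.78% of all genes. Leaving out deletion replicate 3 or 4 gave 5 and 6 of the 51, against 9.02% and 8.09% of all genes. These counts are out of 51 and the shares are percentages, so the figures are not on 1 scale.

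PRC2 has a core of EED, which binds methylated H3, SUZ12, which holds the core together, the histone binders RBBP4 and RBBP7, and 1 of the enzymes EZH1 or EZH2. Levels are log2 values of single probesets. Probesets differ in how they respond, so an order of levels within a family is an order of probeset values and not of transcript amounts. Ezh2, the main enzyme of dividing cells, read 11.01, 11.11 and 11.11 in control and 11.15, 11.12, 11.15 and 11.15 in deletion cells. Ezh1, its paralogue with weaker catalytic activity, read 8.86, 8.67 and 8.77 in control and 8.72, 8.97, 8.94 and 8.94 in deletion cells. Ezh2 stood above Ezh1 by 2.14 to 2.44 on control and 2.15 to 2.43 on deletion arrays, and their ranges did not meet. The groups of Ezh2 were apart by 0.01 at their nearest arrays, while those of Ezh1 overlapped. The differences were 0.07 (SE 0.06) for Ezh2 and 0.13 (SE 0.09) for Ezh1. Without deletion replicate 1 the value of Ezh1 was 0.19, with an unadjusted limma p of 0.046.

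Suz12 read 11.20, 11.24 and 11.26 in control and 11.19, 11.03, 11.21 and 11.22 in deletion cells. Its deletion replicate 2 was the lowest of all 7 arrays, and the difference was -0.07 (SE 0.07). Eed had means of 9.75 ± 0.04 (SD, n = 3) on control arrays and 9.72 ± 0.05 (SD, n = 4) on deletion arrays. Rbbp7 read 12.02, 12.08 and 12.02 in control and 12.07, 12.11, 12.05 and 11.96 in deletion cells. Rbbp4 read 10.80, 10.89 and 10.80 in control and 10.85, 10.85, 10.91 and 10.89 in deletion cells. Both histone binders also serve NuRD, Rbbp7 was the higher on all 7 arrays, and the groups overlapped for each. The differences of Rbbp7 and Rbbp4 were 0.01 (SE 0.06) and 0.04 (SE 0.06). A dimmer probeset of Rbbp4, at 4.49 to 4.999 on all arrays, had the opposite sign, -0.21 (SE 0.11), with overlapping groups.

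The partners of PRC2 direct it to chromatin. The Polycomb-like proteins MTF2, PHF1 and PHF19 bind CpG-rich DNA and define one form of the complex, and JARID2 and AEBP2 the other. Mtf2 read 8.34, 8.45 and 8.29 in control and 8.23, 8.43, 8.44 and 8.35 in deletion cells. Phf1 read 7.29, 6.98 and 7.31 in control and 7.25, 7.13, 6.998 and 6.97 in deletion cells. Phf19 was the dimmest PRC2 member, at 4.66 to 5.11 on all arrays, so the order Mtf2, Phf1, Phf19 held on 7 of 7 arrays. The differences were 0.00 (SE 0.08), -0.10 (SE 0.11) and 0.06 (SE 0.12) in that order. Jarid2 lay at 9.09 to 9.21 and differed by -0.03 (SE 0.06), and Aebp2 lay at 8.999 to 9.31 and differed by 0.01 (SE 0.09). The groups overlapped for all 5 partners. Over the 11 PRC2 genes, 6 had means above control and 5 below, with a median difference of 0.01 and 0 at an unadjusted p under 0.05. The median was 0.05 without control replicate 2 and -0.02 without deletion replicate 2.

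**Figure D2:**
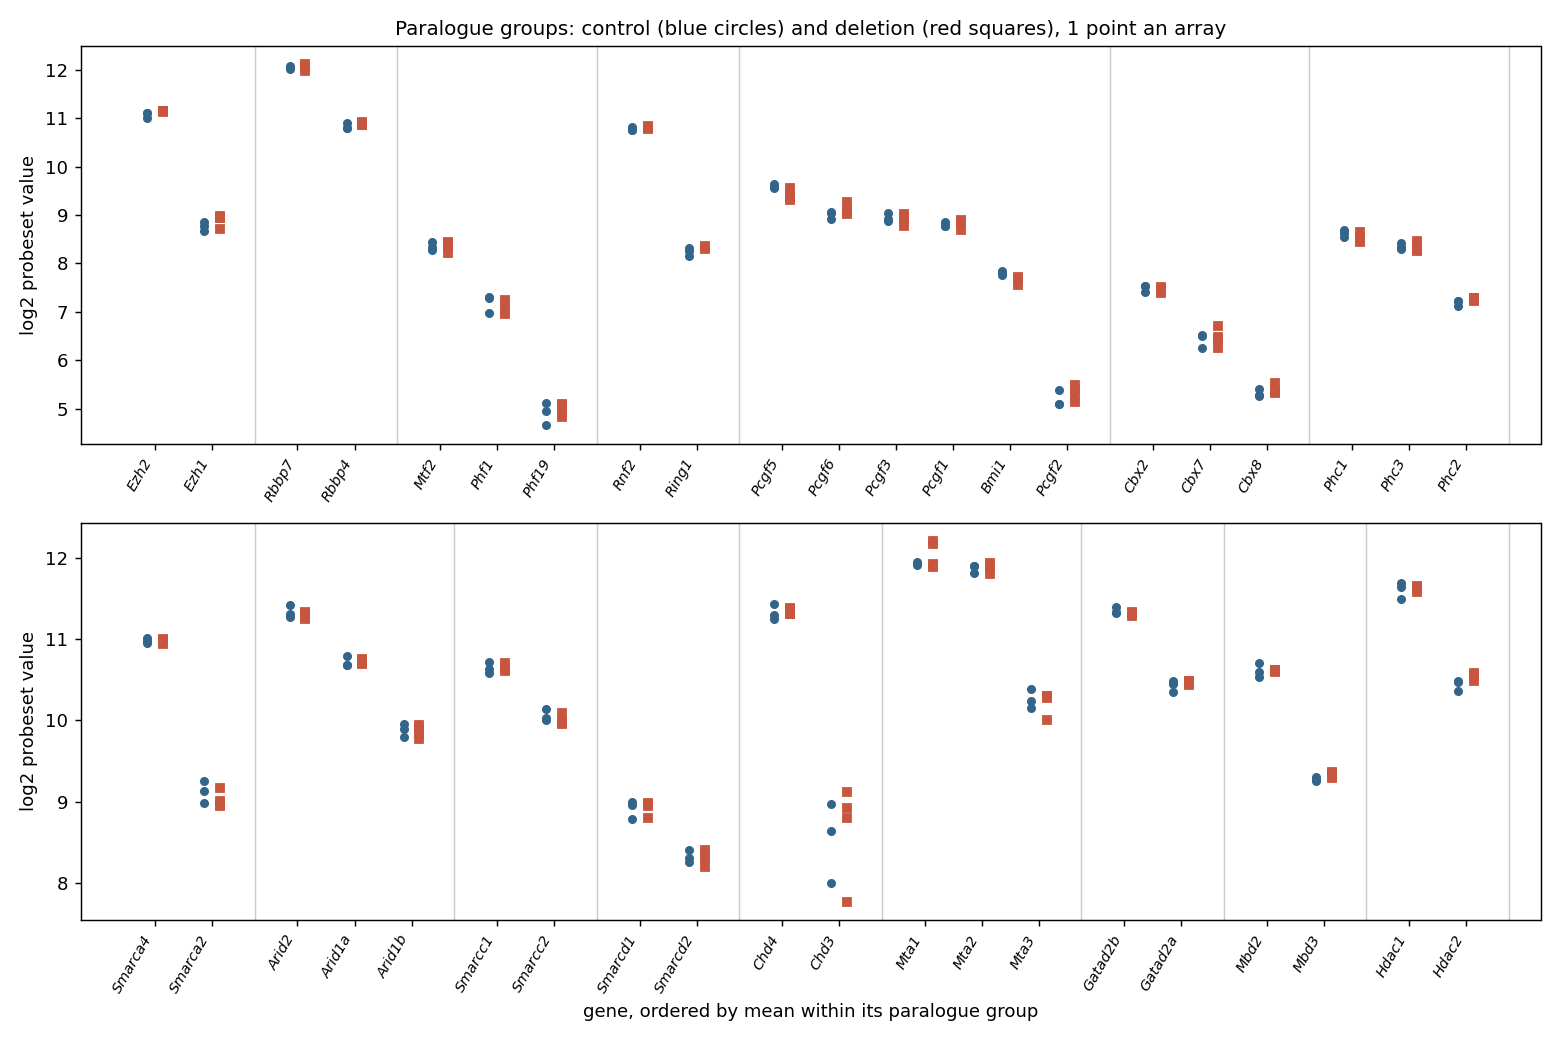
Log2 probeset value (y axis) of the 41 genes in the 16 paralogue groups, ordered by mean within each group, with 1 point for each control array (blue circles) and deletion array (red squares). Neighbours in a group lie apart over all arrays, except for Pcgf6, Pcgf3 and Pcgf1, for Phc1 and Phc3, and for Mta1 and Mta2.

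The 51 genes included 41 in 16 paralogue groups. The order by mean was the same in control and deletion cells for 16 of 16 groups, and it held on each of the 7 arrays for 14 of them. The other 2 were the PCGF and MTA families. All 51 differences lay within 0.2 of 0 and most gaps between neighbours were wider, so an unchanged order says little about the deletion. Of the 25 steps between neighbours in these orders, 4 had ranges over the arrays that overlapped, namely Pcgf6 and Pcgf3, Pcgf3 and Pcgf1, Phc1 and Phc3, and Mta1 and Mta2. Within arrays, Phc1 stood above Phc3 and Pcgf6 above Pcgf3 on 7 of 7 arrays, and Pcgf3 above Pcgf1 and Mta1 above Mta2 on 6 of 7. Taking the mean of all probesets of a gene changed the order in 1 group, PCGF, where Pcgf3 moved below Bmi1. Only 4 members have several probesets, Chd3, Pcgf3, Rbbp4 and Smarcd1, so the order could not change in groups without them.

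PRC1 is built on the ubiquitin ligases RNF2 and RING1. Rnf2 read 10.75, 10.82 and 10.75 in control and 10.80, 10.78, 10.81 and 10.83 in deletion cells. Ring1 read 8.15, 8.32 and 8.25 in control and 8.34, 8.32, 8.35 and 8.29 in deletion cells. Rnf2 was the steadier, with a range of 0.08 over all arrays, and stood above Ring1 by 2.46 to 2.60. The differences were 0.03 (SE 0.06) and 0.08 (SE 0.07).

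Each PRC1 complex takes 1 PCGF protein, which decides its form. BMI1 and PCGF2 enter the canonical complexes that read H3K27 methylation, and PCGF1, PCGF3, PCGF5 and PCGF6 the variant ones. Pcgf5, whose probeset was the brightest of the family, read 9.64, 9.57 and 9.55 in control and 9.55, 9.35, 9.44 and 9.32 in deletion cells. Bmi1, a gene needed for the self-renewal of blood stem cells, read 7.77, 7.84 and 7.80 in control and 7.67, 7.66, 7.72 and 7.55 in deletion cells. On both, all 4 deletion arrays lay below all 3 control arrays, and for Pcgf5 the nearest arrays of both groups read 9.55. Pcgf5 differed by -0.17 (SE 0.08), with an interval of -0.35 to 0.00059, and Bmi1 by -0.15 (SE 0.07), with an interval of -0.30 to 0.0036. Their unadjusted limma p values, 0.0506 and 0.0545, were the smallest of all members, and the adjusted p was 0.999 for each. Under 6 alternatives at least 1 of this pair had an unadjusted limma p under 0.05, between 0.0183 and 0.0495, and the adjusted p was 0.944 or more.

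Pcgf6 read 8.92, 9.06 and 9.04 in control and 9.09, 9.07, 9.26 and 9.02 in deletion cells. Its difference of 0.11 (SE 0.08) was of the opposite sign to that of Pcgf5, and the gap between these neighbours was 0.51 to 0.72 on control and 0.17 to 0.46 on deletion arrays, with no overlap. This is 1 of 2 such steps among the 25, the other being Phc1 and Phc3, and it was not tested. Of all single genes, 5.19% had groups that did not overlap, and no share over other pairs of genes was computed. Pcgf5 alone already had groups that did not overlap, so its gap to Pcgf6 is not a separate result. Pcgf3 lay at 8.77 to 9.05, Pcgf1 at 8.70 to 8.89 and Pcgf2, the dimmest, at 5.10 to 5.48. They differed by -0.05 (SE 0.08), 0.01 (SE 0.07) and 0.13 (SE 0.11). Pcgf3 has another, dimmer probeset, which read 5.05, 5.11 and 5.08 in control and 4.76, 5.02, 4.68 and 4.86 in deletion cells, lower on all 4, with limma p values of 0.0206 before and 0.999 after adjustment. The 2 probesets of this gene thus gave differences of -0.05 and -0.25.

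The CBX proteins read H3K27 methylation and the PHC proteins polymerise the canonical complex. Cbx2 read 7.42, 7.54 and 7.53 in control and 7.50, 7.53, 7.40 and 7.45 in deletion cells. Cbx7 read 6.51, 6.53 and 6.25 in control and 6.25, 6.48, 6.70 and 6.45 in deletion cells. Cbx8 lay lowest, at 5.26 to 5.54, and this order held on 7 of 7 arrays. The 3 genes differed by -0.03 (SE 0.07), 0.04 (SE 0.12) and 0.08 (SE 0.08). Phc1 read 8.63, 8.69 and 8.55 in control and 8.46, 8.66, 8.55 and 8.44 in deletion cells. Phc3 read 8.29, 8.42 and 8.34 in control and 8.29, 8.47, 8.36 and 8.26 in deletion cells. Phc1 stood above Phc3 on every array, by 0.21 to 0.34 in control and 0.17 to 0.19 in deletion cells. They differed by -0.10 (SE 0.08) and -0.01 (SE 0.08), with overlapping groups. Phc2 read 7.13, 7.22 and 7.22 in control and 7.25, 7.23, 7.28 and 7.28 in deletion cells. Every deletion array of Phc2 lay above every control array, with a difference of 0.07 (SE 0.06). Over the 14 measured PRC1 genes, 8 had means above control and 6 below, with a median difference of 0.02 and 0 at an unadjusted p under 0.05. The median was 0.04 without control replicate 2 or deletion replicate 2, and -0.01 without control replicate 3 or deletion replicate 3.

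SWI/SNF genes had the narrowest range of differences. The 13 genes ran from -0.09 to 0.02, a median of 0.00 and 0 with groups that did not overlap, and all 13 were brighter than the median gene. Without 1 array the median lay between -0.02, without deletion replicate 2, and 0.01, without control replicate 2. Smarca4, the BRG1 motor gene needed for erythroid development, read 10.95, 11.01 and 10.97 in control and 10.97, 11.01, 10.99 and 10.94 in deletion cells. Smarca2, the BRM motor gene, read 9.13, 8.99 and 9.26 in control and 8.95, 9.17, 8.98 and 9.01 in deletion cells. Smarca4 had the smallest residual SD of all members, 0.028, while Smarca2 was wider, with a difference of -0.09 (SE 0.09). Smarca4 stood above Smarca2 by 1.72 to 2.02 on all arrays.

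The ARID subunits separate the BAF form, which holds ARID1A or ARID1B, from the PBAF form, which holds ARID2, PBRM1 and BRD7. Arid2 read 11.42, 11.28 and 11.31 in control and 11.33, 11.32, 11.24 and 11.28 in deletion cells. Arid1a read 10.68, 10.80 and 10.69 in control and 10.74, 10.76, 10.69 and 10.70 in deletion cells. Arid1b lay lower, at 9.77 to 9.95, and the order held on 7 of 7 arrays. The differences were -0.04 (SE 0.07), 0.00 (SE 0.06) and -0.02 (SE 0.07). Pbrm1 read 10.69, 10.80 and 10.77 in control and 10.71, 10.64, 10.78 and 10.65 in deletion cells. Its difference of -0.06 (SE 0.07) and that of Brd7, 0.02 (SE 0.06), left the genes of PBAF and BAF alike within 0.1 of 0.

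The core scaffold genes gave the same picture. Smarcc1 read 10.58, 10.72 and 10.63 in control and 10.61, 10.71, 10.65 and 10.64 in deletion cells. Smarcc2 read 10.01, 10.03 and 10.14 in control and 9.96, 10.09, 9.99 and 9.97 in deletion cells. They differed by 0.01 (SE 0.06) and -0.06 (SE 0.07), with Smarcc1 higher on every array. Smarcd1 read 8.79, 8.995 and 8.96 in control and 8.80, 8.99, 8.98 and 8.95 in deletion cells. Smarcd2 read 8.41, 8.26 and 8.31 in control and 8.41, 8.35, 8.30 and 8.20 in deletion cells. The differences were 0.01 (SE 0.08) and -0.01 (SE 0.07), with Smarcd1 higher on every array. Smarcb1, at 10.68 to 10.82, and Smarce1, at 8.91 to 9.19, which have no paralogue in the list, differed by 0.01 (SE 0.07) and 0.00 (SE 0.09). A dimmer probeset of Smarcd1 ranged more widely, from 7.97 to 8.89, with the highest value on control replicate 3. Its mean over all arrays, 8.27, lay below that of Smarcd2, 8.32, so the order of this pair depended on the probeset used.

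In the NuRD and LSD1 set 11 of 13 genes had means above control and 2 below, where 11588 of all 22180 genes were above. Mbd2, Mta2, Chd4 and Hdac1, which were among the 11, differed by 0.02 or less. The median difference was 0.04, and 0 genes had an unadjusted p under 0.05. This median was 0.00 without control replicate 1, 0.01 without deletion replicate 3 and 0.06 without control replicate 2, and -0.01 with the number in the sample description as a replicate block. Hdac2 read 10.36, 10.47 and 10.48 in control and 10.54, 10.49, 10.58 and 10.55 in deletion cells. Hdac1 read 11.48, 11.68 and 11.64 in control and 11.65, 11.62, 11.64 and 11.58 in deletion cells. These are the deacetylases, and of the pair Hdac2 had groups that did not overlap, apart by 0.01 at the nearest arrays, with a difference of 0.11 (SE 0.06) against 0.02 (SE 0.07). Hdac1 stood above Hdac2 by 1.02 to 1.21 on all arrays.

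**Figure D3:**
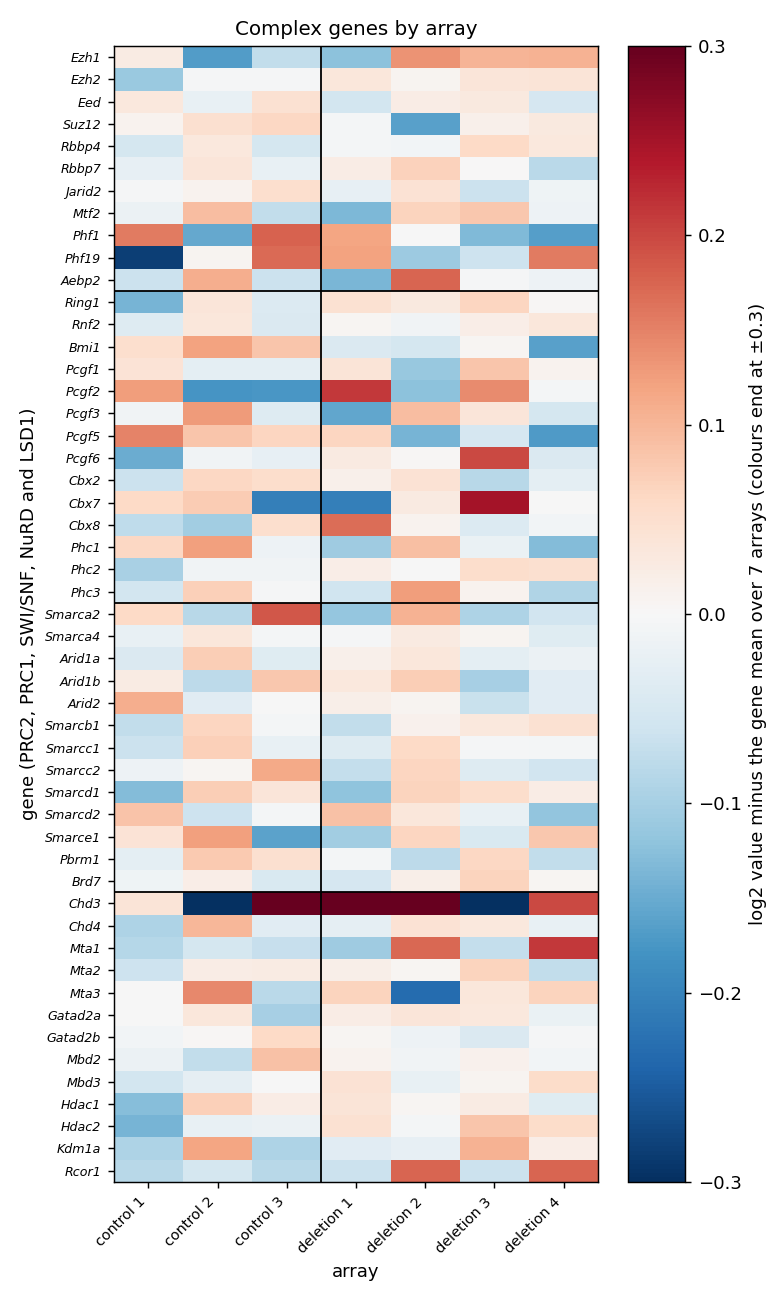
Each row is a gene and each column an array, coloured by the log2 value minus the mean of that gene over the 7 arrays, with colours ending at 0.3. Chd3 shows the deepest contrasts, low on control replicate 2 and deletion replicate 3. Mta1 and Rcor1 are high on deletion replicates 2 and 4.

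The remodellers CHD4 and CHD3 are alternatives within NuRD, and their genes varied very differently. Chd4 read 11.24, 11.43 and 11.30 in control and 11.31, 11.38, 11.37 and 11.31 in deletion cells. Chd3 read 8.65, 8.004 and 8.98 in control and 8.93, 9.13, 7.77 and 8.81 in deletion cells. Chd3 was low on control replicate 2 and deletion replicate 3 and higher on the other 5 arrays, so the groups overlapped widely. Its residual SD of 0.565 was larger than that of 99.5% of all genes, while that of the next widest member, Phf19, was 0.177. The other Chd3 probeset read 6.59, 5.93 and 6.55 in control and 6.67, 6.57, 6.001 and 6.53 in deletion cells, lowest on the same 2 arrays.

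The difference of Chd4 was 0.02 (SE 0.07). That of Chd3 was 0.12 (SE 0.34), and its sign followed single arrays. It was -0.15 without control replicate 2, -0.04 without deletion replicate 2 and 0.41 without deletion replicate 3. With control replicate 2 and deletion replicate 3 both left out, a choice made after the values were seen, it was 0.14. The brighter mast cell markers moved with it in part. Ms4a2, the beta chain of the IgE receptor, read 9.67, 7.55 and 9.99 in control and 10.05, 9.74, 8.07 and 8.81 in deletion cells. Its lowest values lay on the arrays where Chd3 was low. Cpa3, a mast cell protease gene, was lowest on control replicate 2 but, in deletion cells, on replicate 4. Of the 7 mast cell markers these 2 were brighter than the median gene. Tpsb2, Mcpt4, Cma1, Fcer1a and Hdc were dimmer and are not given by array. The summed level of the list read 12.27, 9.97 and 12.30 in control and 11.08, 11.89, 10.78 and 10.52 in deletion cells. That sum was lowest on control replicate 2 but, among deletion arrays, on replicate 4 and not on replicate 3, where Chd3 was lowest. The part of such cells in the spread of Chd3 was not tested, and in bulk RNA fewer cells of a type and less RNA per cell cannot be told apart.

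**Figure D4:**
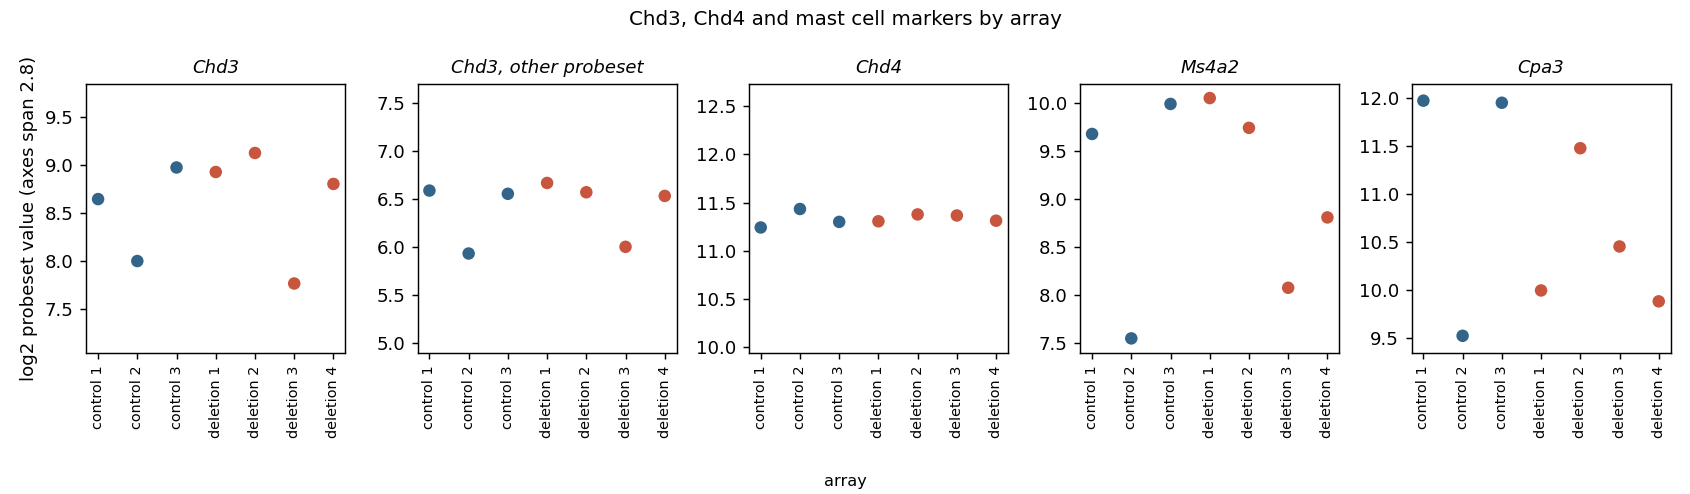
Log2 probeset value (y axis, each panel spanning 2.8) on the 3 control arrays (blue) and 4 deletion arrays (red) for both probesets of Chd3, for Chd4 and for the mast cell markers Ms4a2 and Cpa3. Both Chd3 probesets and Ms4a2 are lowest on control replicate 2 and deletion replicate 3, and Chd4 is level.

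Mta1 and Rcor1 shared a pattern by array. MTA1 is a scaffold that carries the deacetylases in NuRD, and RCOR1 is the CoREST scaffold of LSD1. Mta1 read 11.91, 11.94 and 11.92 in control and 11.89, 12.17, 11.92 and 12.21 in deletion cells. Rcor1 read 11.70, 11.73 and 11.70 in control and 11.72, 11.96, 11.72 and 11.96 in deletion cells. Deletion replicates 2 and 4 were the highest for both, while the other 5 arrays lay between 11.89 and 11.94 for Mta1 and between 11.70 and 11.73 for Rcor1. The differences were 0.12 (SE 0.09) and 0.13 (SE 0.08). With these 2 arrays left out together they were -0.02 and 0.01, so that 2 of the 4 deletion arrays carried both values.

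Both genes lie on chromosome 12, and their neighbours did the same. In the gene order of GRCm38.p6, 35 other measured genes above the median level lie between Rcor1 and Mta1. Deletion replicates 2 and 4 were the 2 highest arrays for 24 of these (68.6%), where this held for 4.06% of 11023 such genes over all chromosomes. Their median gap between those 2 arrays and the other 5 was 0.29, against 0.27 for Mta1 and 0.24 for Rcor1 themselves. Over up to 20 neighbours on each side, the same 2 arrays were the highest for 22 of 33 around Mta1 (66.7%) and 20 of 40 around Rcor1 (50%). The median gap of these neighbours was 0.29 around Mta1 and 0.16 around Rcor1, and for the other 46 members with such neighbours it lay between -0.03 and 0.03. Ezh1 on chromosome 11 also had deletion replicates 2 and 4 highest, making 3 of the 48 members with such neighbours. Its deletion replicates 2, 3 and 4 read 8.97, 8.94 and 8.94, and 5% of its 40 neighbours had the same 2 arrays highest. The region was looked for after the values of Mta1 and Rcor1 were seen, and the arrays were picked by them. Neither the extent of the region nor what it reflects was tested.

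The promoters of this pair are shown because the genes moved together, with the GC box (GGGCGG or CCGCCC) in capitals, in the same kind of window of GRCm38.p6. The window of Rcor1 is chr12:111039117-111039416 and that of Mta1 chr12:113098028-113098327, both on the plus strand.
Rcor1: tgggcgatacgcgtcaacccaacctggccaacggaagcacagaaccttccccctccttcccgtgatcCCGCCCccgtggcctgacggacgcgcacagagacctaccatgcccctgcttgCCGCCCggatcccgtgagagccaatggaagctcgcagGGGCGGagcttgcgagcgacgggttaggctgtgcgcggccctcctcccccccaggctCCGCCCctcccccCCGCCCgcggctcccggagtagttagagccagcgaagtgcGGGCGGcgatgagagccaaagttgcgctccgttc
Mta1: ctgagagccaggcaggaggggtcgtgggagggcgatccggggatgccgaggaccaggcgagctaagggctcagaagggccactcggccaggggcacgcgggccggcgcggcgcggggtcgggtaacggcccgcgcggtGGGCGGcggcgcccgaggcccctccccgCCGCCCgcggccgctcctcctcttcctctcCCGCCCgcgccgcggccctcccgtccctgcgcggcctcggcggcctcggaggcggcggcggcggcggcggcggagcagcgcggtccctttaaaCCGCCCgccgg
Rcor1 held 6 GC boxes and 31 CpG, and Mta1 held 4 GC boxes and 50 CpG. The letters are given as a description of the pair only.

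**Figure D5:**
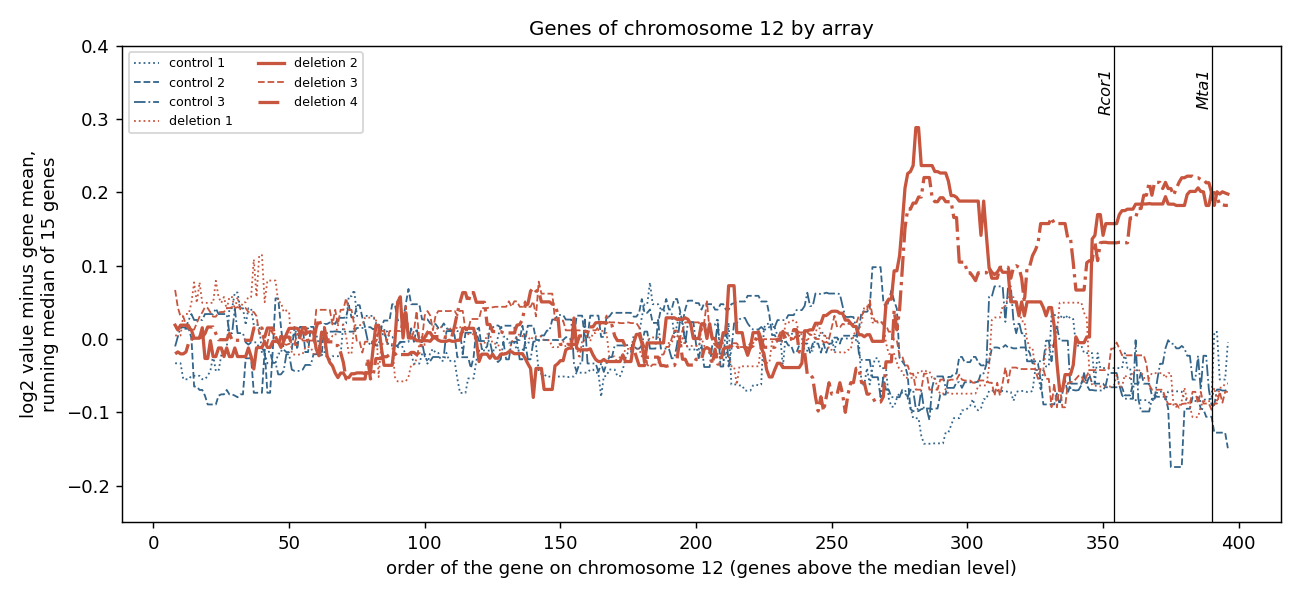
Genes of chromosome 12 above the median level in their order along it (x axis), with the log2 value minus the mean of the gene over all arrays as a running median of 15 genes (y axis), 1 line an array. Deletion replicates 2 and 4 lie above the other 5 arrays toward one end of the chromosome, where Rcor1 and Mta1 are marked, and among them over most of the rest.

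The other NuRD members differed little. Mta2 read 11.81, 11.89 and 11.89 in control and 11.89, 11.87, 11.93 and 11.79 in deletion cells. The ranges of Mta1 and Mta2 overlapped, and Mta3, their shorter paralogue, lay below both at 10.01 to 10.38 with its low value on deletion replicate 2. The differences of Mta2 and Mta3 were 0.01 (SE 0.07) and -0.04 (SE 0.10). Gatad2b read 11.32, 11.33 and 11.39 in control and 11.33, 11.31, 11.28 and 11.33 in deletion cells. Gatad2a read 10.45, 10.48 and 10.35 in control and 10.47, 10.49, 10.48 and 10.43 in deletion cells. These are the zinc finger subunits that bridge CHD4 to the deacetylase core, and Gatad2b was the higher on all 7 arrays, with differences of -0.03 (SE 0.06) and 0.04 (SE 0.06). Mbd2, whose protein binds methylated DNA, read 10.59, 10.54 and 10.70 in control and 10.62, 10.60, 10.63 and 10.60 in deletion cells. Mbd3, whose protein replaces it in a separate form of NuRD, read 9.26, 9.29 and 9.31 in control and 9.36, 9.29, 9.32 and 9.37 in deletion cells. Mbd2 stood above Mbd3 by 1.24 to 1.39, and their differences were 0.00 (SE 0.06) and 0.05 (SE 0.06). Kdm1a, the LSD1 gene, lay at 9.66 to 9.87 and differed by 0.04 (SE 0.08).

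Arrays differed as wholes by little in these genes. Control replicate 2 was the highest of 7 arrays for 16 members and control replicate 1 the lowest for 14. Relative to its group, the median member lay 0.04 higher on control replicate 2 and 0.03 lower on control replicate 1. Over all genes above the median level these shifts were 0.02 and -0.01.

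Other genes of the same systems were examined as lists. In limma with adjustment over all tested probesets, 0 of 112 distinct genes passed, where 0.00902% of all genes did. At an unadjusted limma p under 0.05 there were 5 of the 112, where 4.61% of all genes were at that level. Of 21 other Polycomb genes, 2 were at that level, both lower. Fbrs, a variant PRC1 subunit gene, differed by -0.17 (SE 0.06) and Asxl3, from a family that partners the H2A deubiquitinase BAP1, by -0.20 (SE 0.08). The Asxl3 probeset was dim, at 4.49 to 4.84 on all arrays, below the column medians of 5.42 to 5.46. The list's median was -0.03. Of 14 other NuRD and CoREST genes, 1 was lower and 1 higher, with a median of 0.00. Rcor2, a CoREST paralogue, read 8.47, 8.45 and 8.18 in control and 7.99, 7.91, 7.76 and 8.09 in deletion cells. Every deletion array lay below every control array, and the difference of -0.43 (SE 0.10) had limma p values of 0.00296 before and 0.999 after adjustment. Cdk2ap1, a small NuRD subunit gene, differed by 0.20 (SE 0.07).

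Of 12 erythroid factors that recruit these complexes, 1 was at an unadjusted limma p under 0.05, where 4.61% of all genes were. It was Lmo2, a bridging protein of the TAL1 and GATA complex, at 0.31 (SE 0.13). The next smallest p was that of Runx1 at -0.10 (SE 0.06). The list's median was -0.01. None was at that level among 15 other SWI/SNF genes, 20 ISWI, INO80 and related remodeller genes and 3 H3K27 demethylase genes, whose medians were 0.03, 0.00 and -0.06. The smallest p values among the SWI/SNF genes were those of Bcl7b at 0.07 (SE 0.06) and Dpf1 at -0.10 (SE 0.11). Among the remodellers they were those of Srcap, the motor that deposits histone H2A.Z, at -0.09 (SE 0.06) and Hells at 0.08 (SE 0.06). The demethylases Kdm6b and Uty differed by -0.14 (SE 0.08) and -0.06 (SE 0.11). Of 27 genes known as Polycomb targets, 17 were higher and 10 lower, with a median of 0.04 and 0 at that level. Lhx2, a developmental transcription factor gene, differed by -0.20 (SE 0.10) and Cdkn1c, an imprinted inhibitor of cyclin-dependent kinases, by 0.17 (SE 0.09). The median of all genes was 0.01.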

How the data were processed

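RNA of 7 G1E samples had been hybridised to Affymetrix Mouse Gene 2.0 ST arrays. The deposited values are log2 signals per probeset, which the authors made in Affymetrix Expression Console by RMA, as the submitters' processing notes name them. RMA corrects background, makes the arrays' distributions equal and summarises the probes of a probeset. Version, library files and genome build are not named in the sources used here. Precision is limited by the number of arrays. The values ran from 1.87 to 14.01, with column medians of 5.42 to 5.46.

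Of 41345 probesets, the 23521 with exactly 1 symbol in the platform annotation were tested, 1814 carried several symbols and 16010 had none listed. Cbx6 was not analysed here. Deletion was compared with control by limma 3.58.1 in R 4.3.3 (lmFit and eBayes, two-sided), with p-values adjusted by Benjamini-Hochberg over all tested probesets, a threshold of 0.05 and 95% intervals. The code was tested on simulated data with 200 changed probesets. Nothing says the samples came from separate cultures, so p-values measure only how these samples vary, and part of that variation may be technical.

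All genes of the list are named. Array values are given for the 3 smallest p of each complex and for the top and next gene of each paralogue group, and the 2 smallest p of each other list are named. Chd3, Mta1 and Rcor1 were followed by array after their values were seen. The members and lists were chosen with earlier results of these data known. Promoters are RefSeq's, with 43 of 51 members matched in symbol. Alternatives were other filters, scalings, variance models, replicate blocks and left-out arrays.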

Additional observations from a re-analysis of the deposited data

Results flagged for a closer look

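In 3 of the 51 genes (5.88%) 1 deletion array lay far from the other 3, by Dixon's ratio of the gap to the whole range of the group. Chance marks about 1 in 20 groups. Ezh1 read 8.72 on deletion replicate 1, with the nearest other deletion array at 8.94 and a ratio of 0.872. Ezh2 read 11.12 on deletion replicate 2, with the nearest at 11.15 and a ratio of 0.887. The gap of Ezh2 is 0.03 on the log2 scale. Mta3 read 10.01 on deletion replicate 2, with the nearest at 10.27 and a ratio of 0.891. The control group of 3 arrays is too small for this measure.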

How the results depend on the processing

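Over 919 comparisons of single complex genes under the alternatives, 0 passed the threshold and the smallest limma adjusted p was 0.711. The difference kept its sign throughout for 22 genes and changed it in at least 1 setting for 29, the largest of these being Mta1 at 0.12. Testing all probesets of the array gave Lockd -3.02 (limma adjusted p 0.0991) and Cdkn1b -1.14 (0.141). The title number as a replicate block gave -3.10 (0.109) and -1.14 (0.68), and the description number as a replicate block -2.80 (0.0771) and -1.05 (1). Whether these numbers pair the samples is not stated, since the title and description number the deletion arrays differently. Same-numbered deviations correlated at 0.0248, 0.0611 and -0.098 by title and at -0.171 and -0.0994 by description. Correlations over so few arrays cannot decide the pairing. Leaving out each array in turn gave Lockd -3.10 to -2.78, Cdkn1b -1.21 to -1.08, the PRC2 median -0.0230 to 0.0452, the PRC1 median -0.00955 to 0.0362, the SWI/SNF median -0.0233 to 0.0132, the NuRD and LSD1 median 0.00414 to 0.0604, 0 to 2 genes at an unadjusted p under 0.05 and 5 to 14 with groups that did not overlap. At an unadjusted limma p under 0.05 there were 2 of 48 members among probesets above the median level. Among those over 5 on at least 3 arrays there were 2 of 51 (Bmi1 and Pcgf5 in each). There were 2 of 51 with a trended robust variance (Pcgf5 and Hdac2) and 1 of 51 with array weights (Pcgf5). The description number as a replicate block gave 1 of 51 (Chd3). The shares of all genes in these settings were 4.42%, 4.48%, 4.36%, 4.94% and 2.18%, in that order. Centring each array on its median moved the median of all genes by -0.02. It left 2 of 51 genes with groups that did not overlap, against 4.4% of all genes, and gave a NuRD and LSD1 median of 0.0156. That median was -0.00795 with the description number as a replicate block. Further settings were chosen after seeing the data. Without deletion replicates 2 and 4 the PRC2 median was -0.0269 and 13 of 51 genes had groups that did not overlap, against 17.4% of all genes. Without control replicate 2 and deletion replicate 3 the NuRD and LSD1 median was 0.0612 and the count 14 of 51, against 20% of all genes. Counts here are out of 51 and shares are percentages, so they are not on 1 scale. Fewer arrays and more probesets tested lie in the construction of those settings, and beyond this the cause was not tested. Another background correction and a scan block were not run, as scanner files were not used here.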
